A study of Mus musculus with 4 samples.

Results

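The DNA replication machinery was followed as 45 genes of 50600 in the count tables, covering the proteins that mark origins, load and start the replicative helicase, copy the strands and supply deoxynucleotides. The genes were listed by symbol and found by matching gene identifiers without their version to GENCODE mouse release 21. All 45 symbols matched exactly 1 row each. Levels were taken from the deposited fragment counts and the length of each gene's exons.

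RNA came from regulatory T cells, CD4+ T cells that restrain immune responses, taken as primary cells from mice of strain C57BL/6NJ. The study holds 4 libraries in 1 group, numbered as biological replicates 1 to 4, so there is no treated or control arm and every comparison lies between genes within a library or between libraries. The headers of the count tables name the samples with the words activated and 24 h, the labels give all 4 the same donor identifier, and age and sex are not recorded. A differentiation protocol for CD4+ T cells and a library protocol named for polyA+ RNA are linked, while the assay is called total RNA-seq. The labels do not say which libraries came from separate animals or cultures, so the spread and every p-value below describe these 4 libraries.

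A cell copies its genome once per division. The origin recognition complex sits on DNA, and with Cdc6 and Cdt1 it loads the Mcm2-7 ring, the inactive form of the helicase, before S phase. The kinase Cdc7 with its activator Dbf4, together with cyclin-dependent kinases, then turns loaded rings into working helicases by adding Cdc45 and the GINS complex. DNA polymerases, the sliding clamp PCNA and its loader, single-strand binding protein and the enzymes that join Okazaki fragments copy both strands, and ribonucleotide reductase makes the building blocks. Resting lymphocytes do not copy DNA, and T cells begin to do so after activation. Many of these genes are known targets of the E2F transcription factors.

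The libraries held 38590127, 44357436, 48312918 and 93035969 fragments assigned to genes in replicates 1, 2, 3 and 4. Foxp3, which encodes the lineage's defining transcription factor, averaged 109 ± 14.5 TPM (abundance of transcripts scaled for gene length and to a common library total; SD, n = 4), and Cd4 and Cd3e averaged 539.8 ± 31.7 and 186 ± 11.2 TPM. Il2ra, Ctla4 and Tnfrsf18, further regulatory T cell markers, averaged 245 to 702 TPM, while Ikzf2, which is strong in regulatory T cells from the thymus, averaged 4.32 ± 0.788 TPM. Of 13 markers of other blood cells, Lyz2, S100a8, S100a9, Ncr1 and Hbb-bs were at 0 in all 4 libraries, and Cd8a had the highest mean of the 13, at 1.11 TPM. Replicate 1 stood apart: Gm42418, a gene overlapping ribosomal RNA sequence, took 35490.5 TPM there and 1324 to 3197 TPM in the others, and protein-coding genes took 88.2% of its TPM against 95.6% to 96.6%. Replicates 1 and 2 carried Xist at 100.4 and 88.7 TPM, and replicates 3 and 4 the Y-linked gene Ddx3y at 46.1 and 40.6 TPM. Cells of both sexes were therefore sampled, under the 1 donor identifier, and the spread between libraries mixes 2 libraries of each kind; the part of sex in it was not tested. In bulk samples, fewer cells of a type and less RNA per cell cannot be told apart.

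All 45 genes were expressed at 10 TPM or more on average, and 26 of them (57.8%) reached 100 TPM. Among the 10664 protein-coding genes with at least 1 TPM in at least 1 library, 73.8% reached 10 TPM and 19.3% reached 100 TPM. The median over the 45 genes was 109.6, 134, 131 and 126 TPM in replicates 1 to 4, with a mean of 125 ± 11 TPM, against 29.6 ± 1.27 TPM over the expressed protein-coding genes (SD, n = 4). Levels spread 40.5-fold, with Rrm2 at 822 TPM as the highest mean and Orc4 at 20.3 TPM as the lowest. Pcna, at 816 TPM, was not separated from Rrm2: it was above Rrm2 in replicates 2 and 4, and with the longest transcript as gene length it was at 1023 TPM against 823 TPM for Rrm2. Orc4 and Orc5 were the 2 genes of the 45 that lay below the median of expressed genes.

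Together the 45 genes took 0.943%, 1.03%, 1.02% and 1.02% of all TPM in replicates 1 to 4. Replicate 1 was the low library on this scale. As a share of the TPM of protein-coding genes alone, the values were 1.07%, 1.07%, 1.06% and 1.06% in replicates 1 to 4, and replicate 1 was not low. The 6 genes of the Mcm2-7 ring alone made up 34.2% ± 0.675 of that sum (SD, n = 4). Clamp and clamp loader made up 13.3%, the polymerases 12.7% and ribonucleotide reductase 10.4%. The 2 kinase genes made up 0.768%, the smallest share of the 10 roles.

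**Figure D1:**
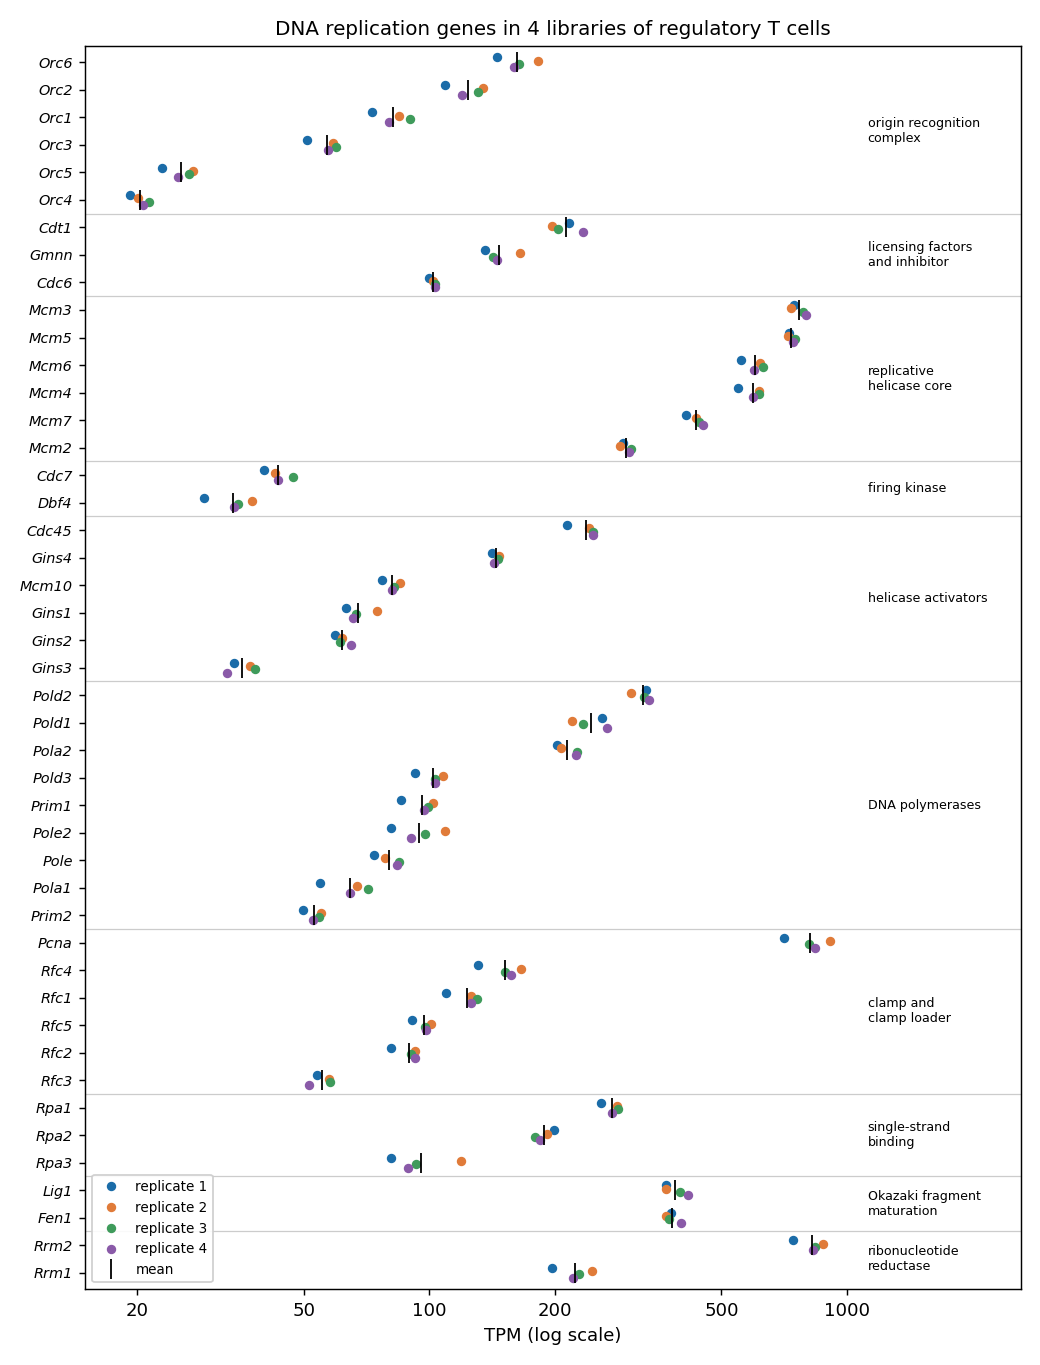
TPM (log axis) of each of the 45 replication genes in the 4 libraries, grouped by role; points are libraries and the black tick is their mean. Mcm2-7, Pcna, Rrm2, Lig1, Fen1 and Pold2 lie to the right, between 295 and 822 TPM. Orc4, Orc5, Dbf4 and Gins3 lie at the low end, between 20.3 and 35.6 TPM.

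Promoter sequences of Mcm3, Mcm5, Mcm6, Mcm7 and Orc1 are shown as examples of windows that hold letters bound by E2F factors. RefSeq entries on GRCm38.p6, the assembly also called mm10, covered 37 of the 45 genes with 46 windows of 300 bases, each from 250 bases before to 50 bases after a RefSeq transcript start. Gins1, Gins2, Gins4, Gmnn, Mcm4, Pole, Prim2 and Rfc2 had no entry. The Mcm2 window, chr6:88898731-88899030, and a second Mcm7 window, chr5:138171217-138171516, held none of these letters and are not printed. The windows below are, in order, chr1:20820263-20820562 on the minus strand, chr8:75109259-75109558 on the plus strand, chr1:128359656-128359955 and chr5:138171834-138172133 on the minus strand, and chr4:108579204-108579503 on the plus strand. Each is written 5′ to 3′ in the direction of its gene, and capitals mark the letters TTTGGCGC, TTTCCCGC, TTTGCCGC or TTTCGCGC on either strand, where overlapping matches run together.
Mcm3: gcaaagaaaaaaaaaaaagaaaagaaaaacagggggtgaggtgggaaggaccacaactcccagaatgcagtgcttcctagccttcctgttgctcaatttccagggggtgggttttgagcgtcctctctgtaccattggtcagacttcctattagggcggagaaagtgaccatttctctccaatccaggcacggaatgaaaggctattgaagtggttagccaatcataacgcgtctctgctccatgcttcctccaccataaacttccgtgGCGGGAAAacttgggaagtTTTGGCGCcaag
Mcm5: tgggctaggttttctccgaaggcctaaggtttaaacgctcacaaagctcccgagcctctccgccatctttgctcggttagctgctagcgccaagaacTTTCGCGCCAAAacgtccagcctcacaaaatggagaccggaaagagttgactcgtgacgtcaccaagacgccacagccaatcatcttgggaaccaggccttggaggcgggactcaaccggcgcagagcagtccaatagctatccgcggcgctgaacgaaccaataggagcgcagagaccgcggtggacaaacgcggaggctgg
Mcm6: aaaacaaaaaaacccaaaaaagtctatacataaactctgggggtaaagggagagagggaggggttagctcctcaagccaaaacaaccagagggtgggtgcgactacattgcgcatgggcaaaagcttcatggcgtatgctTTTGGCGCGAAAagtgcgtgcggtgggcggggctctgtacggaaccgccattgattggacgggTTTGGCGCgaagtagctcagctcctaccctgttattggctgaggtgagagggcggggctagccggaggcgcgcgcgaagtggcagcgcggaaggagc
Mcm7: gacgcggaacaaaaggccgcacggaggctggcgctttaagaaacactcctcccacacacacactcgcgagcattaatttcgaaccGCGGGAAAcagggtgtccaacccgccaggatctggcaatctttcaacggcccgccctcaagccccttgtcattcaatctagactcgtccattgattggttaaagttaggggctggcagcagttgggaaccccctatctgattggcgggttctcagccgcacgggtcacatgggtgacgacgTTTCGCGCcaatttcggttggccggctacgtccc
Orc1: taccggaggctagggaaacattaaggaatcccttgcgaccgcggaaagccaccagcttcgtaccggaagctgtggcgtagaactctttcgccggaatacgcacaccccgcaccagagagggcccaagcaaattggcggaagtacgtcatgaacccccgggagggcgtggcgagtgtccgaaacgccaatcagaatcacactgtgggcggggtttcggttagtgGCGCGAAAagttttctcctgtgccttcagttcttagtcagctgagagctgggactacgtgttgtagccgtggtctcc

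Any of these E2F letters occurred in 15 of 46 windows of replication genes (32.6%). The share was 2.26% over all 32851 RefSeq mouse promoter windows and 4.55% over the 7997 windows of genes with at least 10 TPM. The 15 genes were Cdc6, Cdt1, Gins3, Lig1, Mcm3, Mcm5, Mcm6, Mcm7, Orc1, Orc3, Pola1, Pold1, Pold3, Pole2 and Rfc3, which spans origin recognition, licensing, helicase, polymerase, clamp loader and ligase. They held 21 matches, of which 14 began within 50 bases of the RefSeq transcript start. The share of matches this near the start over all windows is not given. A RefSeq start need not be the 5′ end of the counted gene. The printed Mcm7 window lies inside the counted gene, whose 5′ end is at 138172422. The Mcm5 window ends before the counted gene, which begins at 75109569. In Mcm5 and Mcm6, a match on each strand overlapped to form 1 block. This block began 153 bases before the RefSeq start in Mcm5 and 110 bases before it in Mcm6. Mcm6 held a further match 47 bases before that start. A match is a run of letters, not a measured binding site, and a window without one says only that these letters are not in it.

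Pcna and Rrm2, the 2 most abundant members, had none of the E2F letters in their windows, and both held CCAAT, the letters bound by the factor NF-Y. Their windows are chr2:132253131-132253430 on the minus strand and chr12:24708004-24708303 on the plus strand, with CCAAT on either strand in capitals.
Pcna: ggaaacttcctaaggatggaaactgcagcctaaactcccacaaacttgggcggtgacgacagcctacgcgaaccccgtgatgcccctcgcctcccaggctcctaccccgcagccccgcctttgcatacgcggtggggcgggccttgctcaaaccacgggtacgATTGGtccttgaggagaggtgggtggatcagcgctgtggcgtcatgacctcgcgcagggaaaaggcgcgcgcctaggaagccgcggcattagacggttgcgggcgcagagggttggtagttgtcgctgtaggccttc
Rrm2: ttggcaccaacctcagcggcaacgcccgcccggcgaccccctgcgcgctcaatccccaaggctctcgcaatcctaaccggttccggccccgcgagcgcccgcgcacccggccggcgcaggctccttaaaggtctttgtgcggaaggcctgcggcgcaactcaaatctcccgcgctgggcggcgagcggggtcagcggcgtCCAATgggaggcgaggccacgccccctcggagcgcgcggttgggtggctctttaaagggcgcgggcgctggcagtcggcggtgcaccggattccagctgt

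CCAAT occurred in 25 of 46 windows of replication genes (54.3%), against 37.4% of all windows and 37.9% of those of genes with at least 10 TPM. TTTGAA, part of the cell cycle homology element seen in promoters of later cycle genes, occurred in 8 of 46 windows (17.4%), against 17.9% and 11.9%. The Mcm3, Mcm5, Mcm6, Mcm7 and Orc1 windows printed above held CCAAT as well as E2F letters.

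The origin recognition complex had the widest spread of the 10 complexes compared. Orc6, the small subunit that associates loosely with the rest in mammals, had 145, 182, 164 and 159 TPM in replicates 1 to 4, and Orc4 had 19.2, 20.1, 21.3 and 20.6 TPM. These are an 8.01-fold difference of means. Between them stood Orc2 at 124 ± 11.3 TPM, Orc1 at 81.8 ± 7.23 TPM, Orc3 at 56.7 ± 4.12 TPM and Orc5 at 25.4 ± 1.89 TPM (SD, n = 4). No pair of neighbours in this order overlapped in its range over the 4 libraries. With longest transcripts Orc3, at 88.6 TPM, came above Orc1, at 74.8 TPM, and the ranges of Orc3 and Orc1 and of Orc5 and Orc4 overlapped.

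Orc1, the ATPase subunit whose protein level changes over the cell cycle in human cells, was set against the other core subunits Orc2 to Orc5. On the log2(TPM + 1) scale it exceeded their mean by 0.85, 0.87, 0.95 and 0.86 in replicates 1 to 4, or 0.88 ± 0.04 (6.37 against 5.48; SD, n = 4). It was higher in 4 of 4 libraries. In a two-sided exact permutation test that flips the signs of the 4 library values, 2 of 16 sign patterns reached this mean (p = 0.13), the fewest the design allows, so no contrast of this kind could pass 0.05. Of Orc2 to Orc5, Orc2 was higher than Orc1 in every library and the other 3 were lower. With longest transcripts the mean difference was 0.43.

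Among the licensing factors, Cdt1, which brings Mcm2-7 to origins, had 216, 197, 203 and 233 TPM in replicates 1 to 4. Its inhibitor geminin, encoded by Gmnn, had 136, 165, 142 and 145 TPM. Cdt1 was above Gmnn in each library, by 0.66, 0.26, 0.51 and 0.68 on the log2(TPM + 1) scale, a mean of 0.53 ± 0.20 (exact sign-flip p = 0.13, n = 4). The gap was narrowest in replicate 2, where Gmnn was at its highest and Cdt1 at its lowest.

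Cdc6, the ATPase that works with the origin recognition complex to load the ring, had 100, 102, 103 and 103 TPM. Its coefficient of variation, 1.52%, was the smallest of the 45 genes. A stretch of 26.1% of its longest transcript has a near copy, at least 95% identical over at least 100 bases, in the pseudogene Gm9430, so its level carries some uncertainty.

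The 6 genes of the Mcm2-7 ring were among the most abundant of the module. Mcm3 had 748, 734, 786 and 797 TPM and Mcm5 had 725, 723, 750.0 and 743 TPM in replicates 1 to 4, and their ranges overlapped. Mcm6 averaged 601 ± 31.2 TPM, Mcm4 594 ± 31.8 TPM, Mcm7 435 ± 16.9 TPM and Mcm2 295 ± 8.02 TPM (SD, n = 4). The ratio of highest to lowest subunit was 2.60, although the ring holds 1 copy of each.

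That ratio rested in part on gene length. Mcm2 has 6956 bp of exons in the count tables but a longest transcript of 3494 bp. Dividing by the longest transcript of each gene put Mcm2 at 466 TPM and Mcm5, then the highest, at 689 TPM, a ratio of 1.48. Mcm7 is uncertain for another reason: 72.8% of its longest transcript has a near copy in the processed pseudogene Gm5487. Reads that map equally to 2 places were not counted.

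Mcm2-7 exceeded the origin recognition complex by 3.23, 3.06, 3.11 and 3.19 on the log2(TPM + 1) scale, a mean of 3.15 ± 0.07 (9.09 against 5.94; exact sign-flip p = 0.13, n = 4). That is 8.86-fold, seen in 4 of 4 libraries. The lowest ring subunit, Mcm2 at 286 TPM in replicate 2, was above the highest origin subunit, Orc6 at 182 TPM in the same library.

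With exon unions as gene length, the genes of the firing kinase were among the least abundant. Cdc7, the catalytic subunit, had 40.2, 42.7, 47.2 and 43.5 TPM, and Dbf4, the activating subunit, had 28.9, 37.5, 34.9 and 34.0 TPM in replicates 1 to 4. Cdc7 was above Dbf4 in each library, by 0.35 ± 0.12 on the log2(TPM + 1) scale (exact sign-flip p = 0.13, n = 4). The order turned round with the length of the longest transcript, since Dbf4 has 8728 bp of exons and a longest transcript of 2509 bp: Cdc7 was then 39.1 TPM, Dbf4 93.3 TPM and the difference -1.23.

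The helicase activators ranged from Cdc45, the subunit that joins the ring at firing, to the GINS subunit Gins3. Cdc45 had 214, 241, 247 and 246 TPM, with replicate 1 below the other 3. Gins4 had 141, 147, 146 and 143 TPM, a coefficient of variation of 1.80%. Gins1 averaged 67.5 ± 5.05 TPM, Gins2 61.8 ± 2.33 TPM and Gins3 35.6 ± 2.61 TPM (SD, n = 4), so the 4 subunits of this complex spread 4.06-fold, and 3.77-fold with the longest transcripts. Mcm10, which helps activate the loaded helicase, averaged 81.4 ± 3.35 TPM.

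**Figure D2:**
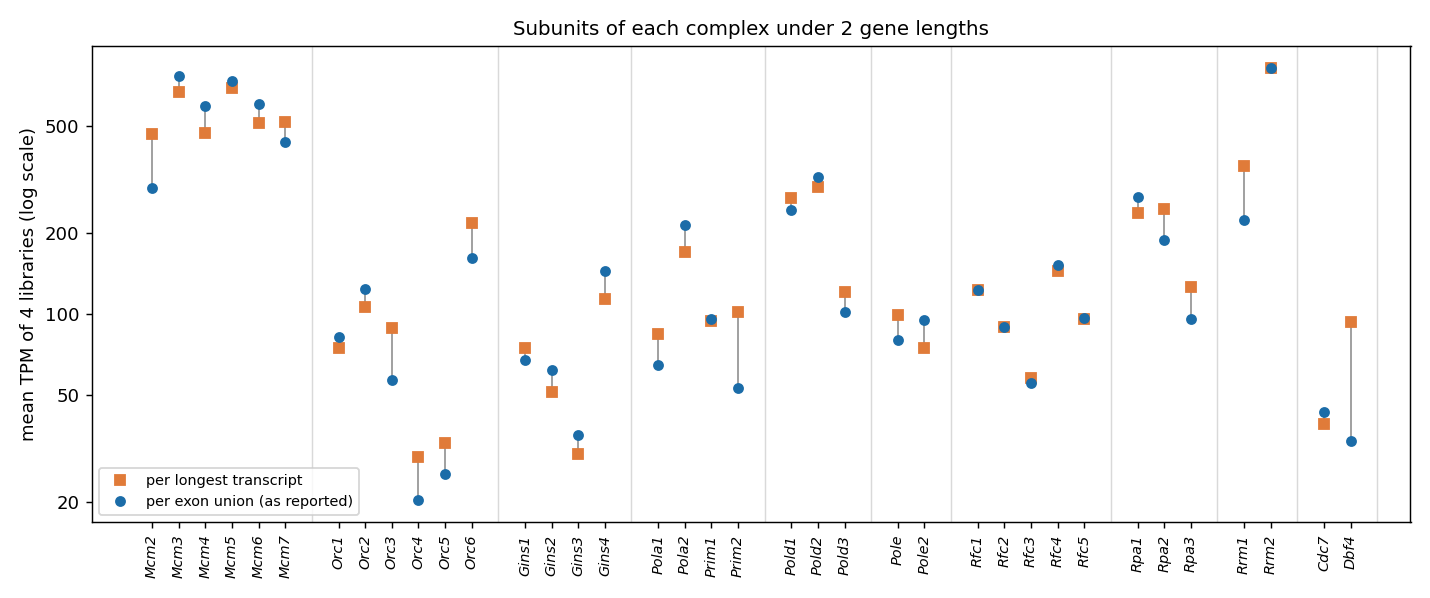
Mean TPM of 4 libraries (log axis) for subunits of 10 complexes, computed with the longest transcript of each gene (squares) and with the union of its exons (circles); lines join the 2 values of a gene. Mcm2, Dbf4, Prim2, Orc3 and Rrm1 move by over 1.5 times, and the spread of Mcm2-7 narrows to 1.48-fold, against 2.60-fold with exon unions.

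Polymerase delta, which copies mainly the lagging strand, held the 2 most abundant polymerase transcripts. Pold2, an accessory subunit, averaged 324 ± 14.0 TPM, Pold1, the catalytic subunit, 244 ± 22.0 TPM and Pold3 102 ± 6.38 TPM (SD, n = 4). Pold1 had 259, 219, 233 and 266 TPM in replicates 1 to 4, high in replicates 1 and 4 and low in 2 and 3.

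Polymerase alpha and primase start each new strand. Pola2 averaged 214 ± 12 TPM, against 64.4 ± 7.14 TPM for the catalytic subunit Pola1, 96.0 ± 7.35 TPM for Prim1 and 53.0 ± 2.37 TPM for Prim2. With longest transcripts Prim2 came to 102 TPM and the spread of the 4 narrowed to 2.02-fold, against 4.05-fold with exon unions. Polymerase epsilon, which copies mainly the leading strand, had Pole, its catalytic subunit, at 80 ± 5.10 TPM and Pole2 at 94.6 ± 11.9 TPM, with overlapping ranges (SD, n = 4). With longest transcripts the order of that pair turned round, to 98.8 TPM for Pole and 74.5 TPM for Pole2.

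Pcna, the sliding clamp that holds polymerases on DNA, had 707, 909, 812 and 837 TPM in replicates 1 to 4. Replicate 1 was low and replicate 2 high, and the coefficient of variation of 10.2% was among the 5 largest of the 45 genes. Its loader subunits ran from Rfc4 at 152 ± 15 TPM through Rfc1 at 123 ± 8.98 TPM, Rfc5 at 96.9 ± 4.56 TPM and Rfc2 at 89.1 ± 5.37 TPM to Rfc3 at 55.2 ± 3.04 TPM (SD, n = 4). The level of Rfc5 carries some uncertainty, since 28.3% of its longest transcript has near copies in 8 other genes.

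Pcna exceeded the mean of Rfc1 to Rfc5 by 3.05 ± 0.07 on the log2(TPM + 1) scale, or 8.26-fold, in 4 of 4 libraries (9.67 against 6.62; exact sign-flip p = 0.13, n = 4). The clamp is a trimer of 1 protein, while each loader holds 1 copy of each of its subunits. Pcna is uncertain because 51.4% of its longest transcript has a near copy in the pseudogene Pcna-ps2, which was itself counted at 13.2 ± 3.43 TPM. Pcna-ps1 was at 0 in all 4 libraries.

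Replication protein A covers single-stranded DNA as a trimer. Rpa1, the large subunit, had 257, 281, 282 and 273 TPM, and Rpa2 had 199, 191, 179 and 184 TPM in replicates 1 to 4. Rpa3, the smallest subunit, had 81.1, 119, 93.1 and 88.7 TPM, with replicate 2 standing above the rest. With longest transcripts Rpa2, at 246 TPM, came above Rpa1, at 238 TPM, with overlapping ranges, and the spread of the 3 narrowed to 1.95-fold, against 2.86-fold with exon unions. The coefficient of variation of Rpa3, 17.1%, was the largest of the 45 genes. The 1114 fragments of Rpa3 in replicate 1 were the lowest count of the module (95% exact Poisson interval 1050 to 1181, counting error only). Counting error was thus small beside that spread.

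Fen1, the flap nuclease that trims Okazaki fragments, averaged 381 ± 13.8 TPM and Lig1, the ligase that joins them, 387 ± 23.8 TPM, with overlapping ranges (SD, n = 4). Lig1 had 368, 368, 397 and 416 TPM in replicates 1 to 4 and Fen1 had 378, 369, 375 and 401 TPM, both highest in replicate 4 on this scale. After TMM scaling, which centres libraries on the bulk of genes, Lig1 stayed highest in replicate 4. Fen1 was then highest in replicate 1, at 0.08 above its mean on the log2 scale, against 0.06 in replicate 4.

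Ribonucleotide reductase turns ribonucleotides into deoxyribonucleotides. Rrm2, the subunit that limits its activity and is known to peak in S phase, had 742, 876, 839.5 and 829 TPM, and Rrm1, the large subunit, had 197, 245, 228 and 220.1 TPM in replicates 1 to 4. Both were lowest in replicate 1 and highest in replicate 2. Rrm2 exceeded Rrm1 by 1.88 ± 0.03 on the log2(TPM + 1) scale, 3.68-fold, in 4 of 4 libraries (exact sign-flip p = 0.13, n = 4). With longest transcripts the difference was 1.21 on that scale, because Rrm1 has 11012 bp of exons and a longest transcript of 5475 bp. Part of Rrm2, 27.9% of its longest transcript, has near copies in 2 processed pseudogenes.

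Further genes of DNA replication were listed beside the module. Of these 41, 40 averaged at least 10 TPM and 13 at least 100 TPM. The median of mean TPM was 124 over the 45 module genes and 70.0 over these 41. Uhrf1, which recruits the maintenance methyltransferase, was highest at 553 ± 31.3 TPM, followed by Dut, which clears dUTP, at 517 ± 43.1 TPM. Dnmt1, that methyltransferase, stood at 445 ± 33.7 TPM, the topoisomerase Top2a at 374 ± 37.7 TPM and Chtf8, a subunit of an alternative clamp loader, at 356 ± 21.7 TPM (SD, n = 4).

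At the low end, Mcm9 and Rrm2b, relatives of ring and reductase genes with roles in DNA repair, averaged 10.3 and 10.4 TPM. Mcmdc2, known for a role in meiosis, had 1 fragment in all, in replicate 4. The p53-inducible reductase subunit Rrm2b was thus far below Rrm2, and Mcm9 far below every Mcm2-7 gene.

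The 21 listed genes of the cell cycle and of entry into S phase were all detected. Cdk4, the kinase of the G1 phase, averaged 539 ± 26.2 TPM, its cyclins Ccnd2 and Ccnd3 315 ± 16.7 and 178 ± 8.32 TPM, and the related kinase Cdk6 30.6 ± 2.57 TPM (SD, n = 4). Cdk2, which drives S phase, averaged 90 ± 6.45 TPM, with its cyclins Ccna2 at 262 ± 30.4, Ccne1 at 175 ± 16.7 and Ccne2 at 61.2 ± 8.92 TPM. Myc, a growth-promoting transcription factor, averaged 497 ± 13.4 TPM and the proliferation marker Mki67 238 ± 24.0 TPM.

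Of the E2F factors, E2f4 averaged 422 ± 30.5 TPM, E2f1 99.6 ± 2.84 TPM, E2f3 64.8 ± 3.92 TPM and E2f2 55.2 ± 4.19 TPM (SD, n = 4). The atypical repressors E2f8 and E2f7 averaged 54.0 ± 4.03 and 9.39 ± 0.380 TPM. The pocket protein genes Rbl1, Rb1 and Rbl2 averaged 54.6 ± 5.28, 31.4 ± 3.69 and 17.2 ± 1.49 TPM. The cyclin-dependent kinase inhibitors differed, with Cdkn1a at 424 ± 23.7 TPM and Cdkn1b at 19.9 ± 1.96 TPM.

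Variation between the 4 libraries was tested for every gene against genes of like abundance with edgeR's quasi-likelihood dispersion. None of the 45 replication genes passed an adjusted p of 0.05, with 58 of 12396 genes called over the whole table (0.468%). At an unadjusted p under 0.05, 2 of the 45 passed, beside 661 of all 12396 genes. Those 2 were Pold1 (edgeR adjusted p = 0.645) and Rpa3 (edgeR adjusted p = 0.822), followed by Cdt1 (edgeR adjusted p = 0.936) and Pcna (edgeR adjusted p = 0.974). DESeq2's dispersion outliers, 69 of 12396 genes, held none of the 45. A share of 0 of 45 is near the background share, so the count says nothing particular about the module. In the same fit none of the 40 further replication genes tested and none of the 21 cell cycle genes passed, with 0 and 1 at an unadjusted p under 0.05.

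Over the 45 genes the coefficient of variation of TPM had a median of 6.38%, against 6.97% over the 6172 protein-coding genes within the same range of TPM. In 26 of the 45 it was below that median, and in all 6 genes of Mcm2-7. Those 6 averaged 295 to 766 TPM, and their coefficients of variation were not set against genes of that narrower range. The 5 genes with the largest values were Rpa3 at 17.1%, Pole2 at 12.6%, Pola1 at 11.1%, Dbf4 at 10.7% and Pcna at 10.2%. Cdc6 at 1.52%, Gins4 at 1.80% and Mcm5 at 1.81% had the smallest on this scale. After TMM scaling, Rpa1, Orc4 and Mcm6 varied least, with dispersions of 0.03 to 0.06 times that of like genes (edgeR's F), against 0.27 for Cdc6, 0.19 for Gins4 and 0.47 for Mcm5. The largest F values were 4.77 for Pold1, 3.95 for Rpa3, 2.87 for Cdt1, 2.27 for Pcna and 2.21 for Rpa2. Pole2, Dbf4 and Pola1 had 2.07, 1.64 and 1.57. Given this spread, 33 of the 44 pairs of genes next to each other in the order of mean TPM had overlapping ranges, so the order of single neighbours is mostly not resolved.

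**Figure D3:**
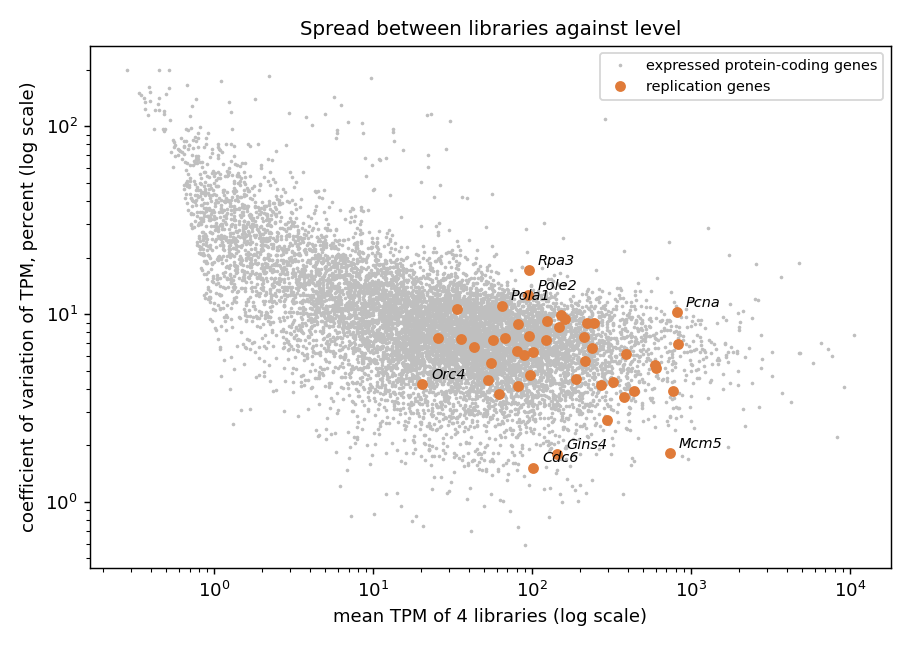
Coefficient of variation of TPM over 4 libraries, in percent, against mean TPM (both log axes) for the expressed protein-coding genes (grey) and the 45 replication genes (orange). Rpa3 at 17.1% is the highest replication gene and Cdc6 at 1.52% the lowest.

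Which library was lowest depended on the scaling. On TPM over all genes, 35 of the 45 were lowest in replicate 1, the library with 88.2% of its TPM in protein-coding genes. On TPM over protein-coding genes alone the lowest library was replicate 1 for 16 genes, replicate 2 for 13, replicate 3 for 5 and replicate 4 for 11. After TMM scaling, which centres libraries on the bulk of genes, 20, 11, 11 and 3 of the 45 were lowest in replicates 1 to 4 and 10, 21, 5 and 9 were highest. Over all genes tested, 28.4%, 30.1%, 21.7% and 19.9% were lowest in these libraries and 28.6%, 28.5%, 23.1% and 19.8% highest. The lowest library was the same on all 3 scales for 25 of the 45 genes. The median deviation of the 45 genes from their own means was then -0.02, 0.03, -0.02 and 0 on the log2 scale in replicates 1 to 4, a median over genes that moved both ways.

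Single genes differed in which libraries were high. After TMM scaling Pold1 deviated from its mean by 0.18, -0.17, -0.12 and 0.12 on the log2 scale in replicates 1 to 4, and Cdt1 by 0.11, -0.12, -0.12 and 0.13. Rpa3 deviated by -0.13, 0.31, -0.08 and -0.1, and Pcna by -0.11, 0.14, -0.06 and 0.03. The first pair was high in replicates 1 and 4, and the second highest in replicate 2.

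**Figure D4:**
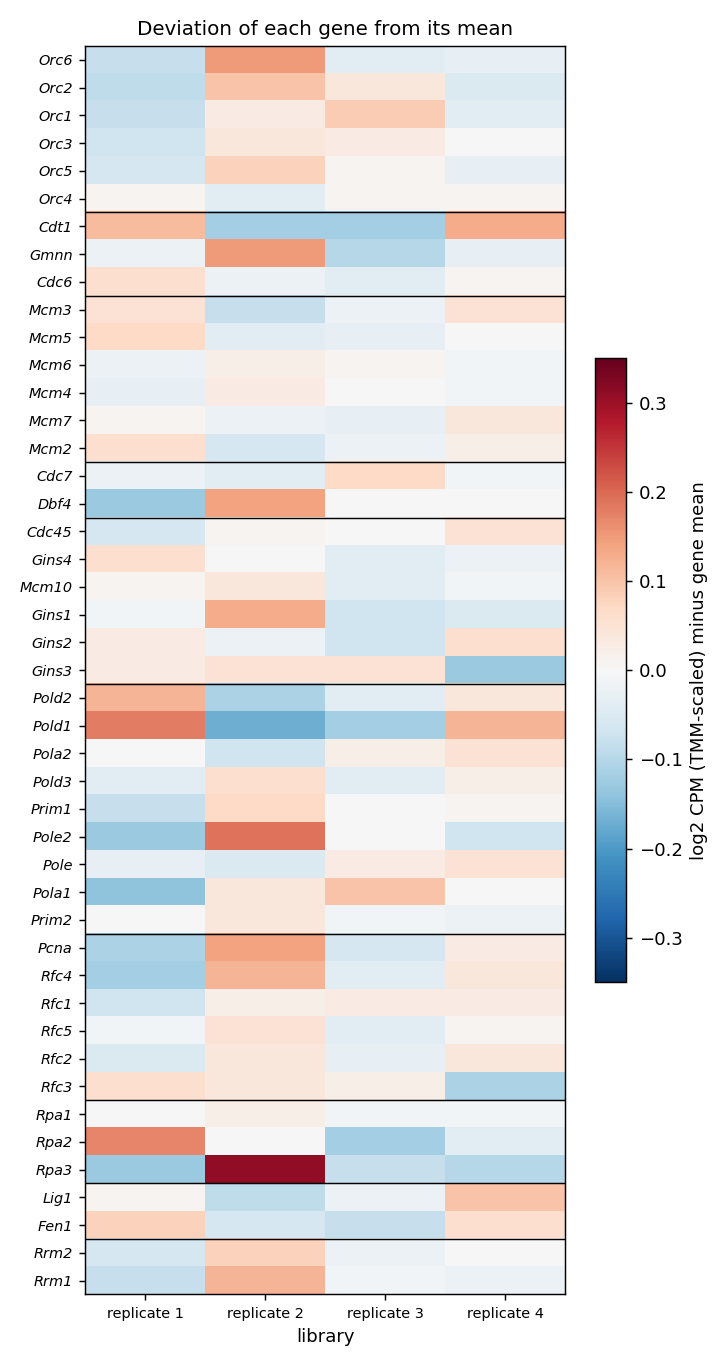
Deviation of each gene from its own mean on the log2 scale of TMM-scaled CPM (fragment counts relative to library size), by library, for the 45 genes in role order; red is above and blue below the gene's mean. Rpa3 reaches 0.31 in replicate 2, and Pold1 and Cdt1 are above their means in replicates 1 and 4 and below in 2 and 3.

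These deviations went with the base composition of the transcripts. Across the 45 genes, the log2(TPM + 1) difference of replicate 2 minus replicate 1 had a Spearman correlation of -0.72 with the GC content of the longest transcript, and across 7868 protein-coding genes with at least 10 TPM it was -0.56. For replicate 2 minus replicate 4 the values were -0.68 and -0.47, and for replicate 3 minus replicate 4 they were -0.73 and -0.43. Replicate 1 minus replicate 3 gave 0.74 and 0.55, while the relation was weaker for replicate 1 minus replicate 4, at 0.37 and 0.21, and for replicate 2 minus replicate 3, at -0.35 and -0.12. With the length of the longest transcript, replicate 2 minus replicate 3 gave -0.42 and -0.34, both larger in size than with GC content. Replicate 3 minus replicate 4 gave 0.17 and 0.38 with length. The remaining differences gave -0.34 to -0.10 across the 45 genes and -0.16 to 0.18 across the 7868. The extremes of GC content were Rpa3, with 34.2% GC and a longest transcript of 682 bp, and Pold1, with 61.0% GC and 3496 bp. The points of each correlation share 2 libraries and genes are not independent replicates, so the correlations describe these libraries. The parts of GC content and of length in the spread of single members were not tested.

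**Figure D5:**
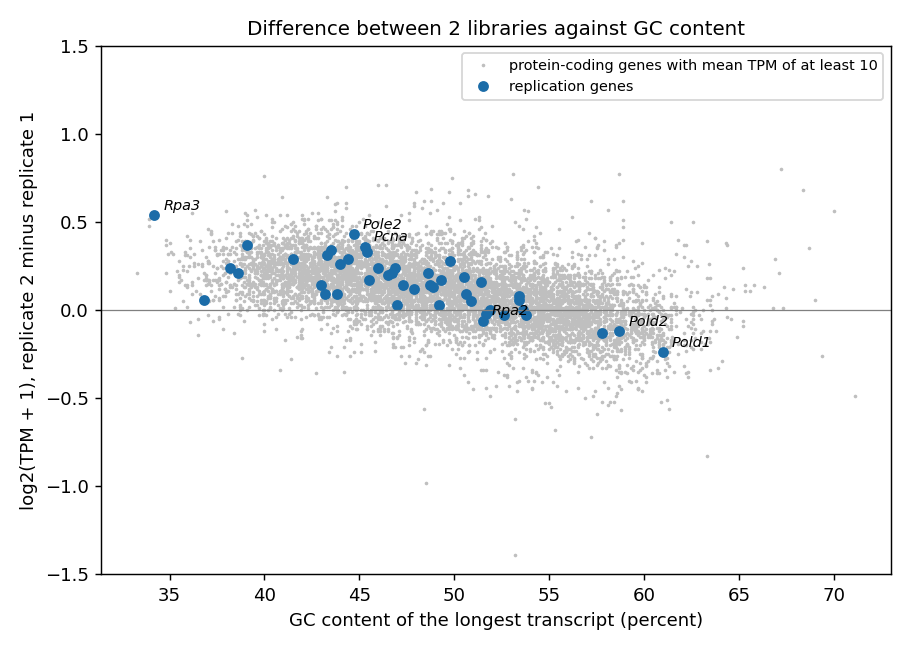
Difference of log2(TPM + 1), replicate 2 minus replicate 1, against GC content of the longest transcript in percent, for protein-coding genes with mean TPM of at least 10 (grey) and the replication genes (blue). Blue points run from Rpa3 at 34.2% GC, above 0, to Pold1 at 61.0% GC, below 0; 9 grey genes lie beyond the vertical limits of 1.5.

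Several members stand head to head with another gene. For 12 of the 45, the 5′ end of a protein-coding gene on the opposite strand lay within 1000 bp of the member's own or overlapped it by under 500 bp. The share over all genes was not counted, so the count says nothing particular about the module. Orc1 and Prpf38a, a splicing factor, start 87 bp apart, and Prpf38a averaged 55.0 ± 5.36 TPM beside 81.8 ± 7.23 TPM for Orc1. Orc3 and Rars2, a mitochondrial tRNA synthetase, start 13 bp apart and averaged 56.7 ± 4.12 and 54.3 ± 2.34 TPM.

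Levels within such pairs were not alike in general. Mcm4 stands 466 bp from Prkdc, a DNA repair kinase, at 594 ± 31.8 against 13.4 ± 2.09 TPM, and Rpa3 stands 115 bp from Umad1, at 95.4 ± 16.3 against 6.28 ± 0.707 TPM (SD, n = 4). Counting used strand, so reads of the 2 genes of a pair were kept apart by their direction. Exons of other genes on the same strand covered 3.89% of Mcm7, 1.46% of Orc5 and 0.789% of Rpa1, and none of the other members.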

How the data were processed

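Per the file headers, the authors ran featureCounts 1.4.6-p4 on each library's alignment, taking fragments whose 2 ends both mapped, the reverse strand (setting 2) and exons of GENCODE mouse release 13. The labels name mm10 as the assembly. The deposited values are raw counts. Neither multi-mapping reads nor reads shared by overlapping genes were asked for in the command, which lowers genes with near copies. The deposited exon union length in bp served as the gene length. No source used here states the aligner, although the alignment's name carries a tag.

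TPM was computed from counts and length so that each library sums to 1000000. Names came from GENCODE mouse release 21, which matched 50376 of 50600 identifiers. Variation between libraries was fitted over 12396 genes in R 4.3.3 with edgeR 4.0.16 (genes kept by filterByExpr, TMM, intercept-only quasi-likelihood fit, robust prior, upper tail of F, Benjamini-Hochberg at 0.05) and checked on simulated counts. DESeq2 1.42.0 gave an alternative. The common biological coefficient of variation was 10.7%. Within-library differences used log2(TPM + 1). Near copies were searched with blastn against release 21 transcripts.

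Every member is named, with the 5 highest and 3 lowest further replication genes, all cycle partners, and the 5 largest and 3 smallest coefficients of variation. Head-to-head neighbours, pseudogenes without the member's name, and the GC and length relations were chosen after values were seen. The members and lists were chosen with earlier results of these data known. A count of 0 allows up to 3 fragments, or 0.0777 CPM (counts relative to library size) in replicate 1 and 0.0322 CPM in replicate 4, for counting error only. Promoter letters were searched in RefSeq windows on GRCm38.p6. Protein sequences were not used here.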

Additional observations from a re-analysis of the deposited data

Results flagged for a closer look

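In 5 of 82 values tested, 1 of the 4 libraries lay far from the other 3, so that its gap to the nearest made up most of the whole range. Chance gives about 1 in 20 such values. Cdc45 was the only one of the 45 replication genes among them: its gap made up 0.844 of the range, with replicate 1 at 214 TPM and the others at 241 to 247 TPM. The summed TPM of the module had replicate 1 low, at 0.943% against 1.02% to 1.03%, with a gap of 0.955 of the range. Orc1 minus the mean of Orc2 to Orc5 was high in replicate 3, at 0.95 against 0.85 to 0.87 on the log2(TPM + 1) scale, with a gap of 0.858. Top2a, a topoisomerase outside the module, had a gap of 0.839. Mcmdc2 had a gap of 1.00, which rests on 1 fragment in replicate 4, the deepest library, and 0 in the others, and so says nothing about that library. Replicate 1 had 88.2% of its TPM in protein-coding genes. As a share of protein-coding TPM the sum was 1.07% there and 1.06% to 1.07% in the others. After TMM scaling Cdc45 deviated from its mean by -0.06, 0.01, 0 and 0.05 on the log2 scale in replicates 1 to 4. Its dispersion was 0.29 times that of like genes (edgeR's F). The part of the protein-coding share in the Cdc45 gap was not tested.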

How the results depend on the processing

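Settings were changed one at a time. The count of replication genes varying between libraries was 0 in every fit run, with the smallest edgeR adjusted p among them between 0.413 and 0.996. Over all genes, 58 called became 110 with no abundance filter, 36 with a prior without the robust option and 37 to 69 when 1 library was left out. The 37 came without replicate 1, of which 31 were among the 58. The module's summed share of TPM was 1.07% over protein-coding genes alone, against 1.00%. Cdc7 minus Dbf4 was -1.23 with the length of the longest transcript, against 0.35, since that length is 2509 bp for Dbf4 and its exon union 8728 bp. The difference of Rrm2 and Rrm1 lay between 1.21 and 1.90, that of Orc1 and Orc2 to Orc5 between 0.43 and 0.90, and that of Mcm2-7 and Orc1-6 between 2.89 and 3.18, all positive. Members at 100 TPM or more numbered 25 to 30. Exact tests over 4 libraries cannot go below 0.13, so their p-values say nothing about stability. Which library is lowest turned on the scaling for 20 of the 45 members. Levels of genes with near copies and with long exon unions carry an error that depth does not reduce. No comparison of conditions was possible because the labels give 1 group.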
